A study of Mus musculus with 10 samples.

Results

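The measurements below concern 10 genes of the Notch pathway in the forming external ear of the mouse: the receptors *Notch1* and *Notch2*, the ligands *Dll1*, *Dll4*, *Jag1* and *Jag2*, and the target genes *Hes1*, *Hey1*, *Hey2* and *Heyl*. They were taken from a table of read counts for 53465 genes as the rows whose Ensembl identifier belongs to these symbols, and each symbol matched 1 row. All 10 carried enough counts to be tested, among 16426 genes tested in all.

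Pinna prominences, the outgrowths that form the external ear, were microdissected from mouse embryos at E14.5 and profiled by bulk poly(A) RNA-seq. The 5 WT libraries and the 5 *mEC1dup/dup* libraries (labelled Knock-In, KI) came from mice kept on a C57BL/6J background. The *mEC1dup/dup* allele was made by CRISPR/Cas9 editing and adds a copy of mEC1, an enhancer downstream of *Hmx1*, to both alleles. It is carried in the germline, so every cell of the embryo has it. According to the study's reporting summary the RNA-seq used independent embryos for each genotype, and its mouse replicates were siblings taken from separate litters. The sources used here do not link a replicate number to a litter. The comparison between genotypes asks how the pinna transcriptome differs when the enhancer is duplicated, here for the Notch genes.

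Notch signalling passes between touching cells. A DSL ligand (Delta-like or Jagged) on one cell pulls on a Notch receptor on its neighbour, proteases cut the receptor, and its intracellular part enters the nucleus, binds the DNA-binding protein RBPJ with a MAML co-activator, and switches on target genes, of which the HES and HEY repressors are the best known. In embryonic skin the pathway takes part in the step from basal to suprabasal keratinocytes, and in vessels *Dll4*, *Hey1* and *Hey2* belong to arterial endothelium.

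Total counts ranged from 17536112 to 18265354 in WT and from 17461544 to 18462073 in *mEC1dup/dup*. *Hmx1*, the gene next to the duplicated enhancer, went from 26.6 ± 3.0 CPM in WT to 66.2 ± 9.11 CPM in *mEC1dup/dup* (mean ± SD, n = 5 libraries in each group, as for all means below), and every *mEC1dup/dup* library was above every WT library. *Xist*, made from the inactive X chromosome of female cells, had 2 to 5 counts in the WT libraries but 12812, 19040, 18165, 2096 and 0 counts in *mEC1dup/dup* libraries 1 to 5, so *Xist* and genotype cannot be fully told apart. The embryonic globins *Hbb-y*, *Hbb-bh1* and *Hba-x*, which adult globins replace as gestation proceeds, made up 18.4 to 23.3% of globin counts in WT and 32.6 to 35.6% in *mEC1dup/dup*. These ranges do not overlap, so the globin share, and any difference in stage it reflects, cannot be told apart from genotype. WT library 4 stood apart within its group: it was the lowest of the WT libraries at 26.7% of the tested genes and the highest at 28.0%, against 15.8 to 20.2% in the other WT libraries, and its summed neuronal marker level was 484 CPM against 32.7 to 167 CPM in those. Member estimates that leaving it out moved by more than 1.5 times, or across the threshold, are given below with and without it.

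Levels are in CPM, the count of a gene relative to the TMM-scaled total of its library. A difference is a log2 fold change of *mEC1dup/dup* against WT from edgeR's quasi-likelihood test, given with its standard error (SE). A gene was called higher or lower when its Benjamini-Hochberg adjusted p over all 16426 genes was at most 0.05 and its mean log2 CPM at least 1. In bulk tissue fewer cells of a type and less RNA per cell cannot be told apart.

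Of the 10 Notch genes, 1 was lower in *mEC1dup/dup*, against 1.81% of all tested genes, and 0 were higher, against 0.834% of all tested genes (2.64% in either direction). None of the 10 was called higher under limma-voom or DESeq2's Wald test, which called 119 and 321 of all tested genes higher. None was higher at an unadjusted p under 0.05. The lower gene was *Jag2*, which fell by 18.4%. The other 9 were not called. 7 of the 10 estimates were negative and 3 were positive, with a median log2 fold change of -0.10 against 0.00 over all tested genes (8409 of the 16426 were negative). An unadjusted p under 0.05 was reached by 3 of the 10 (*Notch1*, *Jag1* and *Jag2*, all lower), against 16.2% of all tested genes in either direction and 9.08% lower.

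**Figure D1:**
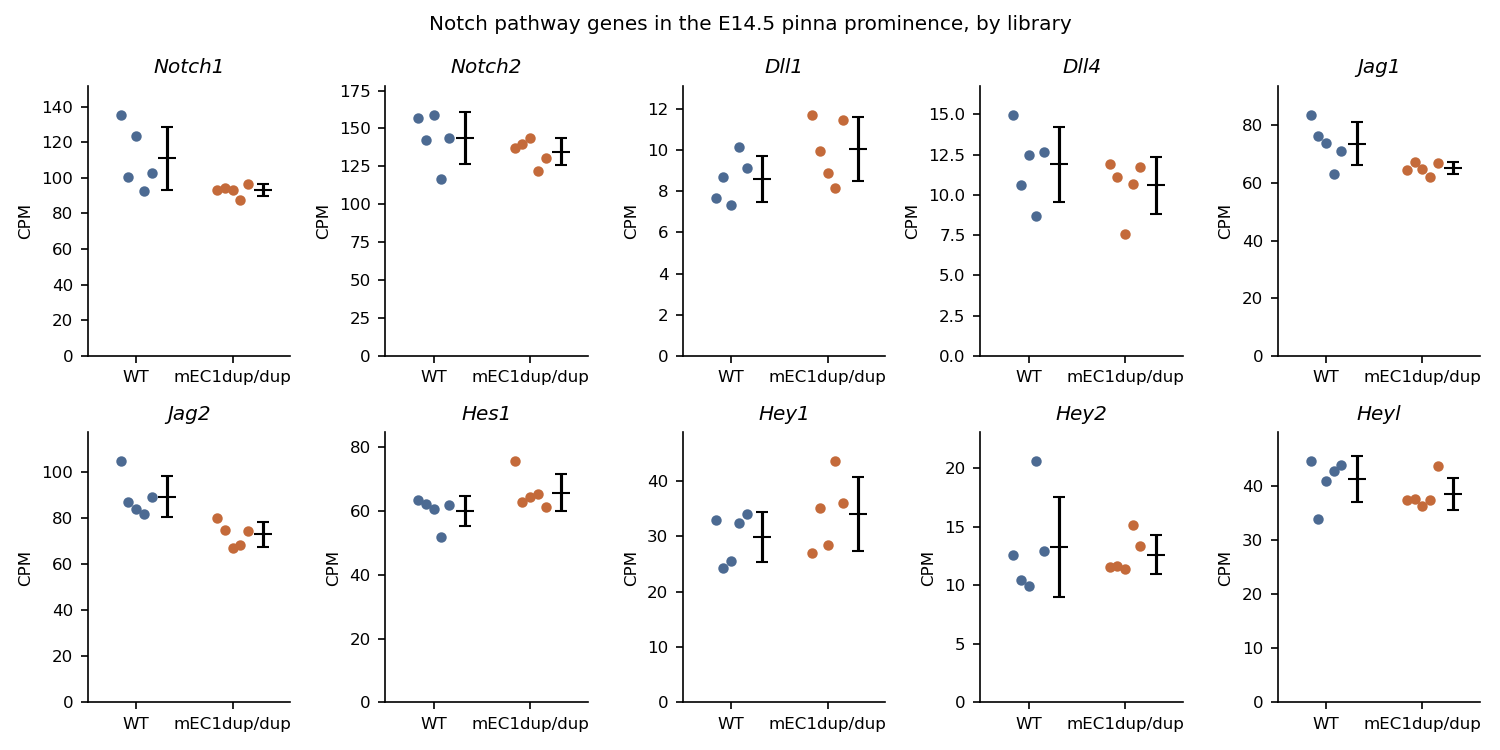
CPM of the 10 Notch genes in each library of WT and *mEC1dup/dup* pinna (points), with the mean and SD of 5 libraries beside them; each axis starts at 0. Only the *Jag2* groups do not overlap, with WT at 81.7 to 105 CPM and *mEC1dup/dup* at 66.9 to 80.0 CPM.

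*Jag2* (ENSMUSG00000002799, GRCm39 chr12:112871421-112893437, minus strand) encodes Jagged2, a ligand of the Jagged class. Its level was 105, 87.0, 84.2, 81.7 and 89.4 CPM in WT libraries 1 to 5 and 80.0, 75.1, 66.9, 68.5 and 74.5 CPM in *mEC1dup/dup* libraries 1 to 5, from 1474 to 1812 counts in WT and 1232 to 1400 in *mEC1dup/dup*. Every *mEC1dup/dup* library was below every WT library, which held for 2.75% of all tested genes (5.07% had groups without overlap in either direction). The means were 89.4 ± 9.04 CPM and 73.0 ± 5.31 CPM. The log2 fold change was -0.29 (SE 0.07, 95% interval -0.44 to -0.14, adjusted p = 0.0407), at place 368 when all tested genes are ordered by p.

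The *Jag2* call lay close to the threshold. The log2 fold change stayed between -0.33 and -0.23 when each library was left out in turn, and the gene was called in 2 of those 10 fits, without WT library 4 (adjusted p = 0.0167) and without *mEC1dup/dup* library 1 (adjusted p = 0.0287). It was lost in the other 8. The adjusted p was 0.0663 without WT library 1, 0.0806 without WT library 2, 0.0542 without WT library 3 and 0.0769 without WT library 5. On the *mEC1dup/dup* side it was 0.0873 without library 2, 0.120 without library 3, 0.0945 without library 4 and 0.0662 without library 5. With the *Xist* level added to the model the estimate was again -0.29, but its SE rose to 0.11 and the adjusted p was 0.449.

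The region before the start of *Jag2* is printed here because *Jag2* is the member that was called, and that of *Hey2* because it is the only member window with the core letters bound by RBPJ. Both are on the minus strand of RefSeq's GRCm38.p6 annotation and read 5′ to 3′. *Jag2* is shown over the 250 bases before its annotated start, at chr12:112929496-112929745, and *Hey2* from 250 bases before to 10 bases after its start, at chr10:30842774-30843033. Capitals mark TGGGAA or its reverse complement.
Jag2: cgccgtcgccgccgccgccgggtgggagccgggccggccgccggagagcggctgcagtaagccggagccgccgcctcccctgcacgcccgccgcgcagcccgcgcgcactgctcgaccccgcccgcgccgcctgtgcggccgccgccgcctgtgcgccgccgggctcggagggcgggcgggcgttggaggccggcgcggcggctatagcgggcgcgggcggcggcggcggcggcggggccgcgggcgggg
Hey2: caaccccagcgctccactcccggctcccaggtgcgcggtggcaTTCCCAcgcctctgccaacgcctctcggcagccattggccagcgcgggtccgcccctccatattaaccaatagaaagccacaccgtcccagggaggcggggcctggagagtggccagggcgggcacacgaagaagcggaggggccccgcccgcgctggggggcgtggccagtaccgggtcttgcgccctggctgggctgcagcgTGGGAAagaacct

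RefSeq windows of 300 bases, from 250 before to 50 after a start, were matched by symbol for 7 of the 10 genes, with 2 windows for *Dll1*. No window was used for *Hes1*, *Hey1* and *Heyl*. TGGGAA was searched on both strands and occurred in the *Hey2* window alone among the 8 member windows, at -207 to -202 as the reverse complement and at -3 to 3 as written, counted from the start. It occurs in 25.6% of all 32851 windows, and at least 2 times in 3.79% of them. CAAGTG, a core bound by HMX factors, was in 0 of the 8 member windows and in 13.6% of all windows. The *Jag2* window was 86.0% G and C, more than in 99.9% of windows, and the *Hey2* window 72.0%, more than in 93.1%, where the median window has 52.7%.

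*Jag1* (ENSMUSG00000027276, GRCm39 chr2:136923373-136958693, minus strand) encodes the other Jagged ligand. It was at 83.6, 76.2, 74.0, 63.0 and 71.2 CPM in WT and at 64.6, 67.4, 64.7, 62.1 and 67.1 CPM in *mEC1dup/dup*. The groups overlap only through WT library 4, since the 4 other WT libraries were above every *mEC1dup/dup* library. The mean went from 73.6 ± 7.49 to 65.2 ± 2.17 CPM, a log2 fold change of -0.18 (SE 0.06, 95% interval -0.31 to -0.04, adjusted p = 0.176), which was not called. Without WT library 4 it was -0.23 (SE 0.05, adjusted p = 0.0211) and called. Without WT library 1, the WT library with the most *Jag1*, it was -0.13 (adjusted p = 0.349).

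*Dll1* and *Dll4*, the Delta-like ligands among the members, had the lowest mean CPM of the 10 genes in each genotype. The order of *Dll4* and *Hey2* did not hold in every library. *Dll4* was above *Hey2* in WT libraries 1 (14.96 and 12.5 CPM), 2 (10.6 and 10.4 CPM) and 3 (12.5 and 9.93 CPM). It was also above *Hey2* in *mEC1dup/dup* library 1 (11.9 and 11.5 CPM). In WT library 4 *Hey2* was at 20.6 CPM and *Dll4* at 8.70 CPM. *Dll4* (ENSMUSG00000027314, GRCm39 chr2:119156170-119166443, plus strand) was at 14.96, 10.6, 12.5, 8.70 and 12.7 CPM in WT and at 11.9, 11.1, 7.55, 10.7 and 11.8 CPM in *mEC1dup/dup*. The ranges overlap, and the difference of -0.17 (SE 0.15, 95% interval -0.49 to 0.16, adjusted p = 0.652) did not pass the test. It was -0.26 without WT library 4 (adjusted p = 0.343), -0.07 without WT library 1 (adjusted p = 0.882) and -0.07 without *mEC1dup/dup* library 3 (adjusted p = 0.884). *Dll1* (ENSMUSG00000014773, GRCm39 chr17:15587276-15597134, minus strand) was at 7.68, 8.69, 7.35, 10.1 and 9.14 CPM in WT and at 11.7, 9.98, 8.91, 8.14 and 11.5 CPM in *mEC1dup/dup*. It was the 1 ligand with a positive estimate, 0.22 (SE 0.13, 95% interval -0.05 to 0.50, adjusted p = 0.429), and 2 *mEC1dup/dup* libraries were above every WT library, but the test did not call it.

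Reads of *Dll1* may include reads of an opposite-strand neighbour. Exons of *Fam120b* and *Gm64896* cover 34.8% of the exonic bases of *Dll1*, and the library kits named for the study do not mark strand. *Fam120b* itself was at 48.4 ± 1.64 CPM in WT and 49.9 ± 3.29 CPM in *mEC1dup/dup* (log2 fold change 0.05). Antisense exons also cover 15.6% of *Dll4* (*Gm14207*) and 14.0% of *Notch1* (*Gm13568* and *0610009E02Rik*), and at most 5.65% of each of the other 7 members. How such reads were divided was not tested.

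The receptors were both abundant. *Notch1* (ENSMUSG00000026923, GRCm39 chr2:26347915-26406675, minus strand) was at 135, 100.2, 124, 92.3 and 103 CPM in WT and at 93.3, 94.4, 93.2, 87.4 and 96.7 CPM in *mEC1dup/dup*. As for *Jag1*, 4 of the 5 WT libraries were above every *mEC1dup/dup* library, and WT library 4 was inside their range. The mean went from 111 ± 17.9 to 93.0 ± 3.43 CPM, a log2 fold change of -0.25 (SE 0.09, 95% interval -0.44 to -0.06, adjusted p = 0.161), which was not called. Without WT library 4 it was -0.31 (SE 0.08, adjusted p = 0.0357) and called. Without WT library 1 it was -0.17 (adjusted p = 0.301). The WT libraries spread more than the *mEC1dup/dup* libraries, with a coefficient of variation of 16.1% against 3.68%.

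*Notch2* (ENSMUSG00000027878, GRCm39 chr3:97920800-98057677, plus strand) was at 157, 142, 159, 117 and 144 CPM in WT and at 137, 139.8, 144, 122 and 131 CPM in *mEC1dup/dup*. All 5 *mEC1dup/dup* libraries lay inside the WT range. The log2 fold change was -0.09 (SE 0.08, 95% interval -0.26 to 0.07, adjusted p = 0.598). It was -0.16 without WT library 4 (adjusted p = 0.108), and -0.06 in each of the fits without WT library 1, without WT library 3 and without *mEC1dup/dup* library 4. None of these fits called *Notch2*. WT library 1 was the highest of the WT libraries in 6 of the 10 members and WT library 4 the lowest in 6, among them *Notch1*, *Jag1* and *Jag2* in both cases.

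The 4 target genes differed in sign and none was called. *Hes1* (ENSMUSG00000022528, GRCm39 chr16:29882134-29886643, plus strand), a bHLH repressor and a Notch target in many tissues, was at 63.5, 62.2, 60.5, 51.9 and 61.7 CPM in WT and at 75.4, 62.6, 64.2, 65.1 and 61.1 CPM in *mEC1dup/dup*. 3 of the 5 *mEC1dup/dup* libraries were above every WT library. Its log2 fold change was 0.13 (SE 0.07, 95% interval -0.01 to 0.28, adjusted p = 0.360). It was 0.08 both without WT library 4, the lowest WT library (adjusted p = 0.509), and without *mEC1dup/dup* library 1, the highest of its group (adjusted p = 0.573).

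*Hey1* (ENSMUSG00000040289, GRCm39 chr3:8726956-8732385, minus strand), a HES-related repressor, was at 32.9, 24.3, 25.6, 32.4 and 34.0 CPM in WT and at 26.9, 35.2, 28.5, 43.5 and 36.0 CPM in *mEC1dup/dup*. Again 3 *mEC1dup/dup* libraries were above every WT library, while the other 2 were inside the WT range. With a log2 fold change of 0.19 (SE 0.13, 95% interval -0.09 to 0.48, adjusted p = 0.529), *Hey1* was not called, and without *mEC1dup/dup* library 4 it was at 0.09 (adjusted p = 0.787).

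*Hey2* (ENSMUSG00000019789, GRCm39 chr10:30708350-30718828, minus strand), whose promoter window is printed above, was at 12.5, 10.4, 9.93, 20.6 and 12.9 CPM in WT and at 11.5, 11.6, 11.4, 15.2 and 13.3 CPM in *mEC1dup/dup*. Apart from WT library 4, all values of both groups lie between 9.93 and 15.2 CPM. The fitted log2 fold change was -0.07 (SE 0.18, 95% interval -0.45 to 0.31, adjusted p = 0.882), and without WT library 4 it was 0.14 (adjusted p = 0.603). Leaving out any other single library gave values from -0.16 to -0.04.

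*Heyl* (ENSMUSG00000032744, GRCm39 chr4:123127349-123143682, plus strand), the third HEY gene and known from vascular smooth muscle, was at 44.6, 34.0, 40.9, 42.9 and 44.0 CPM in WT and at 37.4, 37.5, 36.3, 37.4 and 43.7 CPM in *mEC1dup/dup*. The WT range holds all 5 *mEC1dup/dup* libraries. The estimate was -0.10 (SE 0.08, 95% interval -0.27 to 0.06, adjusted p = 0.574), and -0.16 without WT library 2 (adjusted p = 0.257) or -0.15 without *mEC1dup/dup* library 5 (adjusted p = 0.362). For the 9 genes that were not called, the intervals give what remains possible: that of *Notch2* reaches a log2 fold change of -0.26, that of *Hes1* 0.28 and that of *Dll1* 0.50.

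**Figure D2:**
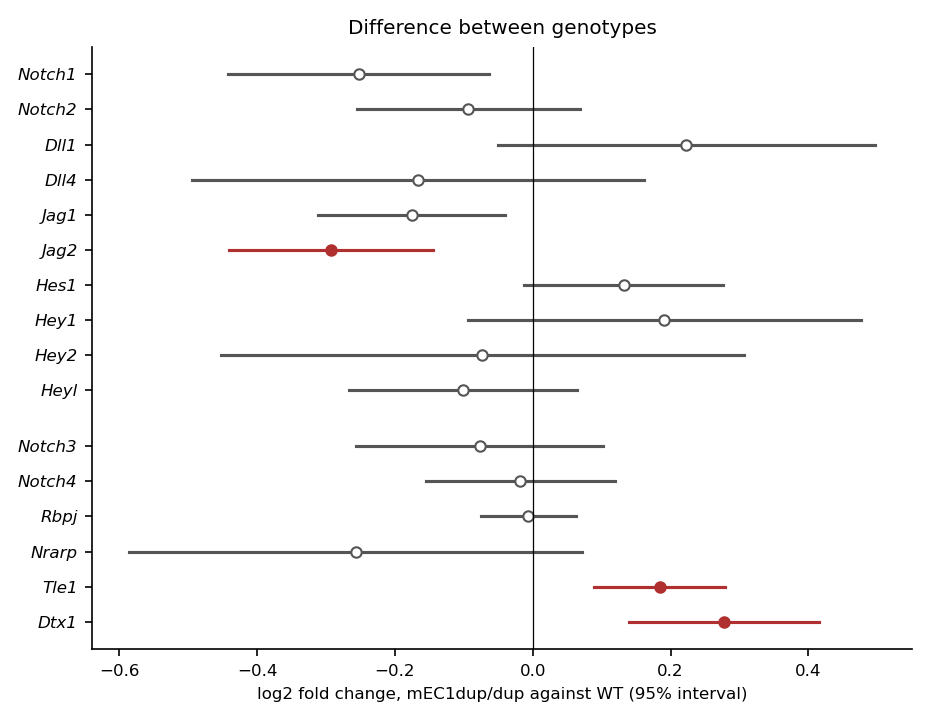
Log2 fold change (*mEC1dup/dup* against WT) with its 95% interval from the edgeR fit, for the 10 Notch genes (upper block) and 6 other genes of the pathway (lower block); filled red points passed the call. *Jag2* is the only filled point of the upper block, at -0.29, and *Tle1* and *Dtx1* are filled in the lower block, at 0.18 and 0.28.

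**Figure D3:**
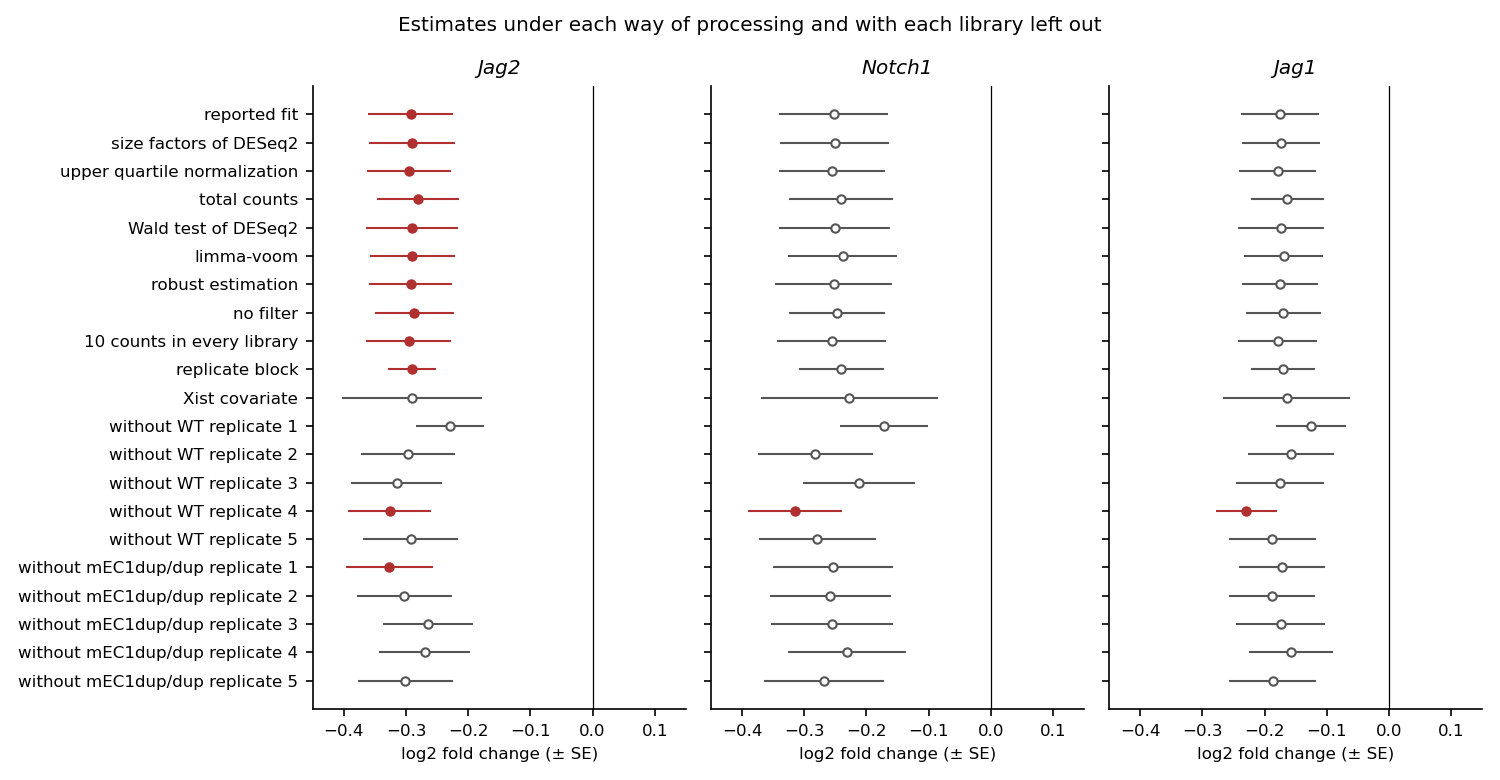
Log2 fold change and SE of *Jag2*, *Notch1* and *Jag1* under each way of processing and with each library left out; filled red points passed the call. All points are below 0, and *Notch1* and *Jag1* are filled only without WT library 4.

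Levels of different genes were compared per length of transcript, as CPM per kb of the Ensembl canonical transcript. In WT *Hes1* was the highest of the 10 at 39.2 ± 3.03 CPM per kb, followed by *Jag2* at 17.3 ± 1.75. *Notch2* (13.6 ± 1.6), *Jag1* (12.8 ± 1.30) and *Notch1* (11.7 ± 1.88) came next, and *Heyl* (9.07 ± 0.94) and *Hey1* (7.67 ± 1.16) after them. *Hey2* was at 5.14 ± 1.65, *Dll4* at 3.09 ± 0.61 and *Dll1* at 2.11 ± 0.28 CPM per kb. Since all genes were measured in the same libraries, neighbours in this order were compared within each library. *Notch2* was above *Jag1* and above *Notch1* in 5 of 5 WT libraries, at 1.04 to 1.27 times the level of *Notch1*, and *Heyl* was above *Hey1* in 5 of 5. *Jag1* was above *Notch1* in 4 of 5 and *Dll4* above *Dll1* in 4 of 5, so the order of these pairs was not the same in every WT library. In *mEC1dup/dup* the order of the means was the same, except that *Hey1* (8.75 ± 1.71) stood before *Heyl* (8.45 ± 0.65). Within libraries of that genotype *Heyl* was above *Hey1* in 3 of 5, and *Jag2* above *Notch2* in 4 of 5. *Notch1* was above *Hey1* in 4 of 5 and *Dll4* above *Dll1* in 4 of 5.

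The order of the middle and low genes depends on the length used. With the length of all annotated exons, *Notch2* (12.8 ± 1.499), *Jag2* (12.6 ± 1.27) and *Jag1* (12.4 ± 1.26 CPM per kb) had no order that held in every WT library, and *Hes1* remained the highest at 17.8 ± 1.37. Against the rest of its family, *Notch1* and *Notch2* were below *Notch3* (20.7 ± 2.84 CPM per kb of canonical transcript in WT) and above *Notch4* (4.09 ± 0.35). *Dll3*, a ligand that does not activate the receptor, was at 0.28 ± 0.12 CPM per kb. The Jagged ligands thus made up most of the ligand mRNA per length.

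Among the 5 ligand genes *Dll1*, *Dll3*, *Dll4*, *Jag1* and *Jag2*, the share of *Jag2* in the summed CPM per kb was 48.6 ± 0.96% in WT (47.4 to 49.6%) and 45.7 ± 0.83% in *mEC1dup/dup* (44.7 to 47.0%). These ranges do not overlap, and with the length of all exons the shares were 42.1 ± 0.99% and 39.3 ± 0.82%. The share of *Jag1* was 36.0 ± 1.49% and 36.7 ± 1.89%, and that of *Dll1* 6.01 ± 1.22% and 7.94 ± 0.80%. No test was made on shares.

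**Figure D4:**
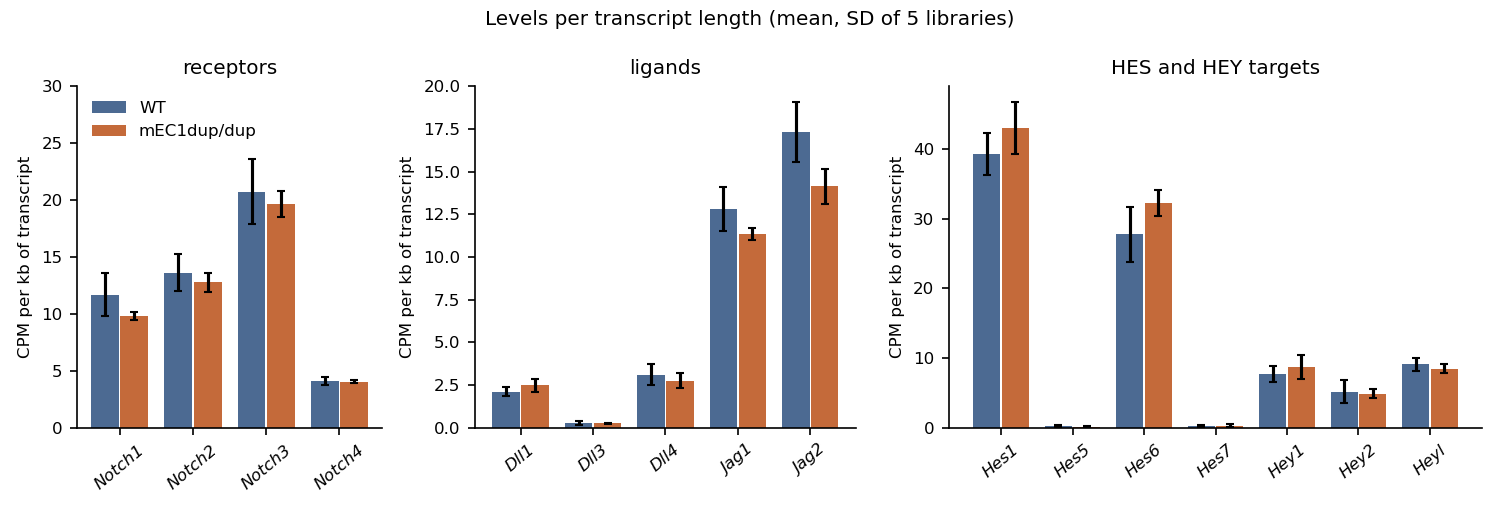
Level per length (CPM per kb of canonical transcript) of receptor, ligand and HES/HEY genes in WT and *mEC1dup/dup*; bars are means and error bars SDs of 5 libraries, and each axis starts at 0. *Hes1* is the highest target gene at 39.2 in WT, and *Jag2* the highest ligand at 17.3 in WT and 14.1 in *mEC1dup/dup*.

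The other genes of the pathway were followed in a list of 60, from receptors to repressors, of which 55 were tested (*Hes2*, *Hes3*, *Hes5*, *Hes7* and *Helt* had too few counts). 2 were higher in edgeR's test, against 0.834% of all tested genes, and 0 were lower, against 1.81%. DESeq2's Wald test called 3 higher (*Dtx1*, *Tle1* and *Maml1*) and 1 lower (*Kat2b*). Over all 16426 tested genes that test called 321 higher and 510 lower. An unadjusted p under 0.05 was reached by 9 of the 55, a share close to the 16.2% over all tested genes. The 55 estimates were split 28 negative to 27 positive, with a median of 0.00. The receptor *Notch3* went from 168 to 159 CPM (-0.08, adjusted p = 0.711). Its estimate was -0.16 without WT library 4 (adjusted p = 0.115) and -0.03 without WT library 1 (adjusted p = 0.909), and it also moved by more than 1.5 times without WT library 3 or *mEC1dup/dup* library 4 (both -0.05). *Notch4* went from 27.1 to 26.7 CPM (-0.02, adjusted p = 0.922) and *Rbpj*, the DNA-binding hub, from 126 to 125 CPM (-0.01, SE 0.03, adjusted p = 0.948), both so near 0 that leaving out single libraries turned the sign. *Nrarp*, a Notch target that feeds back on the pathway, was at 5.27 and 4.41 CPM (-0.26, SE 0.15, adjusted p = 0.453). WT library 1 held 7.40 CPM of *Nrarp* against 4.55 to 4.88 CPM in the other WT libraries, and without it the estimate was -0.10 (adjusted p = 0.759). *Hes5*, a target best known from neural progenitors, was at 0.25 and 0.18 CPM and not tested.

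*Dtx1* encodes Deltex1, an E3 ubiquitin ligase that binds the intracellular part of Notch, and stands in the list of negative regulators, of which it was the 1 called of 12. It was at 27.7, 24.9, 27.3, 23.8 and 29.6 CPM in WT and at 31.1, 32.1, 33.3, 31.0 and 34.0 CPM in *mEC1dup/dup*. The groups do not overlap, which in this direction held for 2.33% of all tested genes, and the mean rose from 26.7 ± 2.33 to 32.3 ± 1.34 CPM (0.28, SE 0.06, adjusted p = 0.0382). *Rasal1*, whose exons cover 30.5% of those of *Dtx1* on the opposite strand, had 1 to 9 counts per library. The *Dtx1* call held without WT library 5 (adjusted p = 0.0272) and without *mEC1dup/dup* library 1 (0.0438). It was lost without WT libraries 1 (0.0722), 2 (0.0946), 3 (0.0728) and 4 (0.0520), without *mEC1dup/dup* libraries 2 (0.0891), 3 (0.116), 4 (0.0578) and 5 (0.0857), and with the *Xist* covariate (0.356).

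*Tle1* encodes a Groucho-type co-repressor that HES and HEY proteins recruit, and was the 1 called of 10 co-repressor genes. It was at 111, 113, 125, 114 and 119 CPM in WT and at 129, 132, 126, 143 and 132 CPM in *mEC1dup/dup*. The groups do not overlap, though WT library 3 and *mEC1dup/dup* library 3 lie close together, and the mean rose from 116 ± 5.76 to 132 ± 6.44 CPM (0.18, SE 0.04, adjusted p = 0.0440). Without WT library 3 the adjusted p was 0.0362. The call was lost without WT libraries 1 (0.112), 2 (0.101), 4 (0.0555) and 5 (0.0666), without *mEC1dup/dup* libraries 1 (0.0522), 2 (0.0988), 3 (0.0726), 4 (0.0899) and 5 (0.0782), with the *Xist* covariate (0.388), and with a block for the replicate number (0.0501). 8 of the 10 co-repressor genes had positive estimates, among them *Tle2* (0.24, adjusted p = 0.221) and *Tle3* (0.16, adjusted p = 0.140), which were not called.

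edgeR's test called no gene among the 4 ligand ubiquitin ligases, the 5 receptor glycosyltransferases, the 10 receptor proteases or the 8 genes of the nuclear complex. Their median log2 fold changes were -0.07, 0.03, -0.03 and 0.03, and an unadjusted p under 0.05 was reached by 0, 0, 1 and 2 of them. The genes nearest to a call there were *Maml1*, a co-activator of the RBPJ complex (0.19, adjusted p = 0.0717 in edgeR and 0.0222 in DESeq2's Wald test), the acetyltransferase gene *Kat2b* (-0.34, adjusted p = 0.108 in edgeR and 0.0498 in DESeq2's Wald test) and *Psen2*, a subunit of the protease that frees the intracellular part (-0.23, adjusted p = 0.128). *Hes6*, the 1 tested gene among the other HES genes, was at 37.5 and 43.5 CPM (0.22, adjusted p = 0.233).

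Markers of several cell types of the pinna differed between the genotypes, and their part in the Notch gene values was not tested. Of the basal epidermis list, 3 of 8 genes were lower (*Krt5* -0.69, *Krt14* -0.64 and *Perp* -0.79) and the other 5 were not called. All 8 had negative estimates and an unadjusted p under 0.05, with a median log2 fold change of -0.50. Its summed level ran from 938 to 1603 CPM in WT and from 731 to 984 CPM in *mEC1dup/dup*, with none of its genes at 0 in every library. Of the suprabasal epidermis list, 7 of the 8 tested genes were lower, with a median log2 fold change of -1.92 over the 8, among them *Krt1* (-1.97), *Krt10* (-1.86) and *Krt77* (-3.75), and the sum ran from 176 to 511 CPM in WT and from 63.3 to 86.9 CPM in *mEC1dup/dup*. WT library 1, which had the most *Jag2*, *Jag1* and *Notch1* of the WT libraries, also had the largest basal and suprabasal sums. Its fibroblast, endothelium and macrophage sums were likewise the largest of the WT libraries. *Col1a1* (7109 CPM) and *Col1a2* (5613 CPM) made up most of its fibroblast sum of 15120 CPM. In that library *Col1a1*, *Col1a2*, *Dcn* and *Lum* were at their highest of the WT libraries, while *Pdgfra*, *Twist1*, *Twist2* and *Prrx1* were not. WT library 5 had the smallest basal and suprabasal sums of the WT libraries. Its *Jag2* was above that of WT libraries 2, 3 and 4, its *Notch1* above WT libraries 2 and 4, and its *Jag1* above WT library 4 alone.

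Vessel markers moved less. The endothelium list had 0 of 8 genes called by edgeR (1 with an unadjusted p under 0.05), with sums of 517 to 638 CPM in WT and 537 to 600 CPM in *mEC1dup/dup*. Of the 6 arterial genes 0 were called (1 with an unadjusted p under 0.05), and 5 of the 6 estimates were positive. Their sums were 324 to 363 CPM in WT and 368 to 375 CPM in *mEC1dup/dup*, without overlap. *Efnb2*, an arterial gene that other cell types also make, went from 203 to 225 CPM with no overlap between the groups (0.15, adjusted p = 0.0596). It was the largest part of the arterial sums, whose means were 349 CPM in WT and 371 CPM in *mEC1dup/dup*. Of the 6 arterial genes *Efnb2* was the only 1 whose groups did not overlap. In the pericyte and smooth muscle list 1 of 7 tested genes was lower (*Rgs5*, -0.50), with sums of 562 to 663 CPM and 569 to 672 CPM. Sums of neuron markers were 137, 43.6, 32.7, 484 and 167 CPM in WT and 60.2 to 211 CPM in *mEC1dup/dup*. WT library 4, with the highest neuronal sum, also had the most *Hey2* and *Dll1* of the WT libraries. It had the least *Notch1*, *Notch2*, *Dll4*, *Jag1*, *Jag2* and *Hes1* of the WT libraries, and its fibroblast sum of 9285 CPM was the lowest of all 10 libraries.

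**Figure D5:**
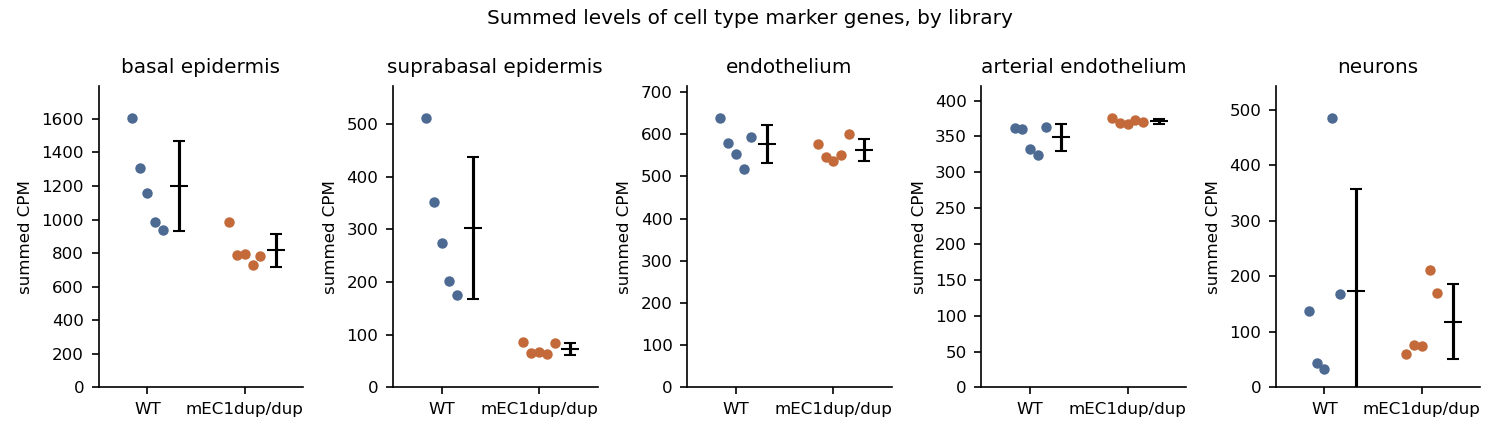
Summed CPM of the marker lists of 5 cell types in each library of WT and *mEC1dup/dup* (points), with mean and SD of 5 libraries beside them; the lower SD bar of the WT neurons is clipped at 0. The suprabasal sums of both groups do not overlap (176 to 511 against 63.3 to 86.9 CPM), and WT library 4 is the high point of the neuron plot at 484 CPM.

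Of the remaining lists, fibroblast markers had 1 of 8 genes lower (*Lum*, -0.30) and skeletal muscle markers 3 of 8 lower (*Ttn* -0.72, *Ckm* -2.25 and *Myh3* -0.61). Among chondrocyte, lymphatic, melanoblast, neuron, Schwann cell and macrophage markers none was called by edgeR, with unadjusted p under 0.05 for 2 of 6, 0 of 4, 2 of 5, 0 of 5, 1 of 6 and 0 of 6 genes. Of the 8 erythroid markers *Hbb-y* (0.81) and *Hba-x* (0.79) were higher and *Hba-a2* (-0.49) was lower. The *Notch1*, *Jag1* and *Jag2* values were not adjusted for any of these lists.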

How the data were processed

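Raw counts per gene of 10 bulk RNA-seq libraries were used. The authors made the deposited counts with fastp, STAR on GRCm39 and featureCounts, without normalization. The annotation release, the strand setting and the treatment of reads with several matches are not given in the sources used here, and the kit named in the labels differs from that in the study's methods. Columns were mapped to genotypes through the sample labels. No 2 libraries were duplicates (the lowest chi-square per degree of freedom between libraries of a genotype was 2.55). Symbols, positions and lengths came from GENCODE vM39, which matched 49355 of 53465 genes. The unmatched genes held 0.111% of counts.

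Genes were filtered with filterByExpr, normalized by TMM and tested with edgeR 4.0.16 (glmQLFit, glmQLFTest, R 4.3.3) genotype being the sole term. The SE is the size of the log2 fold change divided by the square root of F. P-values set the difference between genotypes against the spread between these libraries, and depth limits the low genes. On simulated counts with 200 genes changed by a log2 fold change of 1, 161 of these and 11 unchanged genes were called. Alternatives used DESeq2 1.42.0, limma-voom (limma 3.58.1), other scalings and filters, an *Xist* covariate, a block for the replicate number, and each library left out. Figures were drawn with matplotlib 3.10.9. Promoter windows came from RefSeq (GRCm38.p6).

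The members and all lists were chosen with earlier results of these data known. Named genes were the 10 members, each called gene of the list of other Notch genes, *Notch3*, *Notch4*, *Rbpj*, *Nrarp* and *Hes5* in any case, *Hmx1*, and called marker genes. Other genes are named because they were nearest to a call or overlap a named gene, and were chosen after their values were seen. The length of all exons as an alternative and the order of levels within libraries were also added after seeing the data.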

Additional observations from a re-analysis of the deposited data

Results flagged for a closer look

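In 5 of the 20 groups of 5 libraries examined (10 genes in each genotype), 1 library lay far from the other 4, by the gap to its nearest neighbour as a share of the range of the group (critical value 0.710). Chance flags about 1 in 20 groups. *Hes1* was far from the rest in both genotypes. In WT library 4 it was at 51.9 CPM against 60.5 to 63.5 CPM in the other WT libraries (share 0.737), and in *mEC1dup/dup* library 1 it was at 75.4 CPM against 61.1 to 65.1 CPM (share 0.723). *Hey2* in WT library 4 was at 20.6 CPM against 9.93 to 12.9 CPM (share 0.720). *Dll4* in *mEC1dup/dup* library 3 was at 7.55 CPM against 10.7 to 11.9 CPM (share 0.722). *Heyl* in *mEC1dup/dup* library 5 was at 43.7 CPM against 36.3 to 37.5 CPM (share 0.837).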

How the results depend on the processing

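Among the 10 Notch genes 1 was called lower in the reported fit, 0 with the *Xist* covariate, 0 at an adjusted p of at most 0.01, and 0 to 3 with 1 library left out (3 without WT library 4: *Notch1*, *Jag1* and *Jag2*). The call of *Jag2* held in 9 of 10 other ways of processing (adjusted p 0.00309 to 0.449 over these 10) and was lost with the *Xist* covariate, and its direction held in every fit run. The sign turned for *Hey2* with the *Xist* covariate (0.076) and without WT library 4 (0.14, where leaving out each library gave -0.16 to 0.14) and for *Heyl* with the *Xist* covariate (0.06). That covariate also moved *Dll4* to -0.03, *Hes1* to 0.04, *Hey1* to 0.35, *Notch2* to -0.17 and *Dll1* to 0.35, each by more than 1.5 times and none called. *Hey2* (-0.07 reported) also moved by more than 1.5 times, to -0.03 under limma-voom and to -0.04 with the replicate block. The cause was not tested. The other Notch genes gave 1 lower under DESeq2's Wald test and 1 with the replicate block (*Kat2b* in both). Of these genes 4 were higher with the block (*Dtx1*, *Maml1*, *Tle2* and *Tle3*, but not *Tle1*), 3 under the Wald test and 3 with total counts (*Dtx1*, *Tle1* and *Maml1* in both), 0 with the *Xist* covariate, 0 at 0.01 and 0 to 1 with 1 library left out. Over all tested genes, the lower calls (297 reported) were 510 under the Wald test, 487 with the block, 1 with the *Xist* covariate, 62 at 0.01 and 120 to 476 with 1 library left out. The higher calls (137 reported) were 321, 200, 2 and 16 in the same settings and 34 to 179 with 1 library left out. Same-numbered libraries of both genotypes did not deviate together throughout (correlations of deviations -0.06 to 0.34, best for their own number in 2 of 5), so the block was not taken as a pairing. Scalings moved the median of all tested genes to between -0.01 and 0.01. Depth limits *Dll1*, *Dll4* and *Hey2* most among the members.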
